A study of Homo sapiens with 64 samples.

Results

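Genes that make and modify fatty acids were followed through 64 RNA sequencing libraries of colorectal cancer lines. The 10 symbols were ACLY, ACACA, FASN, SCD, ELOVL5, ELOVL6, FADS1, FADS2, FAR1 and FAR2, looked up by gene symbol among the 54127 counted identifiers. The annotated identifier of ACACA, the carboxylase that makes malonyl-CoA, matched no counted identifier, so 9 genes were analysed and ACACA was not analysed here. The genes were chosen by function with measured values in view, namely the log2 fold change between label-retaining and other cells, in which FAR2 was known to be lower, so that difference is given below as a description, with counts of calls beside those over all genes, and nothing is read from those counts. Tests are given for dye and time in the unsorted controls and for levels between cell lines.

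The sorted libraries came from 6 established colorectal cancer lines: HT55 and SW948 (colon cancer subtype CCS1), RKO and SW48 (CCS2), and DLD1 and HCT15 (CCS3). Cells were stained with CFSE, a dye that each division dilutes, grown without serum or attachment as spheroids with bFGF and EGF, and sorted on day 6 into LRCs (label-retaining cells, high in CFSE) and non-LRCs (labelled BULK), with 4 libraries of each per line. The 16 control libraries were unsorted DLD1 cells, stained with CFSE or given DMSO without the dye (unlabeled), on day 1 and on day 5 of the labels (day 6 of the study's text), with 4 libraries per group. The study's text does not say whether the controls were grown as spheroids. The study's methods call the 4 replicates biological without saying what separated them, so p-values measure the spread between these libraries.

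In fatty acid synthesis, ACLY splits cytosolic citrate into acetyl-CoA, ACACA carboxylates it to malonyl-CoA, and FASN joins these units into palmitate. ELOVL6 lengthens palmitate to stearate, SCD places the first double bond in saturated chains, and FADS1, FADS2 and ELOVL5 desaturate and lengthen polyunsaturated chains. FAR1 and FAR2 reduce fatty acyl-CoAs to fatty alcohols, the precursors of ether lipids and waxes. Many of the synthetic genes are targets of the SREBP factors, which respond to sterols and lipids, and FASN is often raised in colorectal tumours.

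All 9 are protein-coding genes, on GRCh37 ACLY at chr17:40023170-40086795 (minus), FASN at chr17:80036214-80056170 (minus), SCD at chr10:102106990-102124583 (plus), ELOVL6 at chr4:110967002-111120355 (minus), ELOVL5 at chr6:53132196-53213977 (minus), FADS1 at chr11:61567099-61596790 (minus), FADS2 at chr11:61560452-61634826 (plus), FAR1 at chr11:13690215-13753893 (plus) and FAR2 at chr12:29301949-29494054 (plus).

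RefSeq promoter windows (GRCh38.p14 table, 250 bases before to 50 after a start site) were found for 8 of the 9 genes and placed on GRCh37 by exact match. Those of ACLY, SCD and FAR1 are shown, since ACLY and SCD were lower with the dye on day 1 and FAR1 was not called, and since the 250 bases upstream of the start shown hold no annotated exon. The sequences read 5′ to 3′ on the strand of the gene, from chr17:40075276-40075525 (minus), chr10:102106740-102106989 (plus) and chr11:13689965-13690214 (plus), with the NF-Y box CCAAT in capitals, written ATTGG where it lies on the other strand.
ACLY: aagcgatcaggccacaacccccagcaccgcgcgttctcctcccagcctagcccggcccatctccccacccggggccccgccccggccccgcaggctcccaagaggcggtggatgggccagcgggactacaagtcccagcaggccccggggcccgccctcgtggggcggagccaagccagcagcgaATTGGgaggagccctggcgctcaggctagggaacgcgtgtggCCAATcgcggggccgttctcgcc
SCD: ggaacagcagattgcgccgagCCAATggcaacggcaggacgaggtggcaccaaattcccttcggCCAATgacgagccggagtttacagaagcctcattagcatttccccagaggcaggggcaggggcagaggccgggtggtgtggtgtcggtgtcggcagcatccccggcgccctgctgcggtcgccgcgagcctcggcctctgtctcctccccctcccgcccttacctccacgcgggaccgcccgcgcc
FAR1: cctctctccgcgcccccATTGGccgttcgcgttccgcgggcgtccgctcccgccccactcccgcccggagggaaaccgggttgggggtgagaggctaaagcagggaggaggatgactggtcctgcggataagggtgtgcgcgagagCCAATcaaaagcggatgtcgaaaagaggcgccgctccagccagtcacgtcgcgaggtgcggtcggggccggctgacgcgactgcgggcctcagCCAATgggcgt
Over the whole windows and both strands, CCAAT was in 5 of the 8 genes (ACLY, SCD, ELOVL5, FADS2 and FAR1) and in 34.6% of all 35116 windows of the table. The GC box GGGCGG was in 7 of 8 genes and 45% of windows, the E-box CACGTG in 1 gene (ELOVL5) and 7.26% of windows, and the sterol regulatory element TCACNCCAC in 0 genes and 1.13% of windows. No match in these windows overlapped another. A match is a description of the letters only.

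Libraries held 12237225 to 20913455 reads on genes (median 15063858). All 48 sorted libraries were nearest to a library of their own line. For 7 of them, in HT55, SW48 and SW948, that library was of the other population (LRC or non-LRC). SW948 non-LRC replicates 1, 3 and 4 were each nearest to SW948 LRC replicate 4. In HT55, LRC replicate 2 and non-LRC replicate 2 were nearest to each other. Levels are given as CPM, counts per 1e6 of a library's size after TMM, a scaling between the 64 libraries. The library labelled unlabeled day 1 replicate 4 stood with day 5. Its log2 CPM correlated at 0.9929 and 0.9932 with 2 unlabeled day 5 libraries and at 0.9725 to 0.9788 with the other unlabeled day 1 libraries. Within CFSE day 1, replicates 1 and 2 were each nearest to the other, as were replicates 3 and 4, and SCD below splits the same way. CFSE day 5 and the LRCs and non-LRCs of DLD1 and HCT15 had this split too, so it is not particular to CFSE day 1. Counts in the controls are also given without unlabeled day 1 replicate 4, or without CFSE day 1 replicates 1 and 2. This is done where they change by over 1.5 times, and the alternatives were chosen after the data were seen. Summed epithelial markers were 219.6 to 19613 CPM over 8 genes, with the lowest sums in RKO (at most 334 CPM). EPCAM, KRT8, KRT18 and CDX2 were at 14.9 CPM or more in every library. CDH1, KRT19, VIL1 and CEACAM5 fell to 0.624, 0.394, 0.0789 and 0.0687 CPM in some library, and the median of CEACAM5 was 1.78 CPM. Of 5 leukocyte markers CD3E was at 0 throughout, and the summed list (2.02 to 1618 CPM, highest in RKO) was mostly CD68. Summed fibroblast markers reached 13.4 CPM (COL1A1 alone up to 12.9), and the endothelial and adipocyte lists reached 3.59 and 10.2 CPM.

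Levels of the genes differed widely between lines. The levels are means of 4 libraries with their SD. The test of any difference between the 6 lines in the non-LRCs (edgeR, 24 libraries) called 9 of 9, where 98.3% of all genes were called, so the counts say nothing particular to these genes and the levels themselves are described. FASN was the most even, from 1136 ± 151 CPM (SD, n = 4) in RKO to 673 ± 103 in HCT15, and each line in its order overlapped the next. ACLY was 583 ± 40 CPM in SW948 and 568 ± 34.2 in RKO, above 415 ± 20.7 in DLD1, 374 ± 24.3 in HT55 and 327 ± 28.97 in HCT15, and lowest in SW48 at 233 ± 34.5. Among these, SW948 overlapped RKO, DLD1 overlapped HT55 and HT55 overlapped HCT15.

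SCD stood at 3165 ± 955 CPM in SW48 non-LRCs, with values of 3988, 1791, 3541 and 3339. All 4 lay above every non-LRC library of SW948 (1518 ± 98.3), the next line. SW48 non-LRC replicate 2, lowest of its group for SCD, was the highest of it for the other 7 genes read there at 1 CPM or more. DLD1, HT55, HCT15 and RKO followed, from 1367 ± 526 down to 898 ± 105, each overlapping the next. Per kilobase of annotated exon, SCD had the highest level of the 9 genes in the non-LRCs of every line, from 171 CPM per kb in RKO to 603 in SW48, while FASN lay between 72.2 and 122.

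ELOVL6 was 220.4 ± 9.68 CPM in RKO non-LRCs (225, 232, 215 and 211), apart from 58.9 ± 8.50 in HCT15. HCT15, SW48, DLD1 and SW948 overlapped in turn, and HT55 was lowest, at 31.8 ± 2.32 CPM. RKO was thus the only line above 100 CPM in its non-LRCs.

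ELOVL5, the elongase of polyunsaturated chains, was present in the CCS1 lines and close to absent in the others. Its non-LRC values were 89.4, 73.6, 85.9 and 79.6 CPM in HT55. They were 67.0, 65.2, 71.4 and 70.6 CPM in SW948. In RKO it had 0 reads in all 4 non-LRC and all 4 LRC libraries, which allows up to 0.0524 CPM in the non-LRCs (3 counts over the 4 libraries, counting error only). In SW48, DLD1 and HCT15 non-LRCs the 4 libraries together held 8, 9 and 12 reads, where those of HT55 held 4432.

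FADS1, the delta-5 desaturase, had another order. SW948 non-LRCs held 81.6, 87.0, 84.2 and 84.6 CPM, all above HT55 (41.3 ± 6.33) and HCT15 (33.2 ± 3.90), which overlapped. DLD1 (7.89 ± 0.632) and SW48 (7.45 ± 2.61) overlapped too. In RKO only 3 reads fell on FADS1 in 4 non-LRC libraries and 2 in 4 LRC libraries. FADS2, the delta-6 desaturase beside it on chromosome 11, was 21.1 ± 1.90 CPM in RKO, where it overlapped the highest line, HT55, at 33.1 ± 11.7. FADS2 was lowest in SW48 (6.35 ± 3.37), SW948 (4.75 ± 0.518) and DLD1 (4.34 ± 0.582), each overlapping the next. FADS1 and FADS2 share 490 exon bases on opposite strands in the annotation, and whether counting used strand is not given in the sources used here.

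Both reductases were read in every line. FAR1 was 149.7 ± 5.56 CPM in DLD1 and 118 ± 9.12 in SW948, each apart from the next line, and HCT15, SW48, HT55 and RKO overlapped in turn between 85.7 ± 10.03 and 73.6 ± 4.70. FAR2 had its highest levels in HT55 (47.4 ± 1.83) and SW948 (43.2 ± 2.20) and its lowest in DLD1 (10.5 ± 0.995). Per kilobase FAR1 exceeded FAR2 in each of the 6 lines, at 9.64 against 3.47 CPM per kb in HT55 and 19.5 against 0.765 in DLD1. These values divide by 7673 exon bases for FAR1 and 13684 for FAR2. Before that division the HT55 levels were 73.9 and 47.4 CPM. FAR2 shares 314 exon bases with ERGIC2 on the opposite strand, and its pseudogenes FAR2P1 and FAR2P2 took 662 and 121 reads in all libraries, against 23148 for FAR2.

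**Figure D1:**
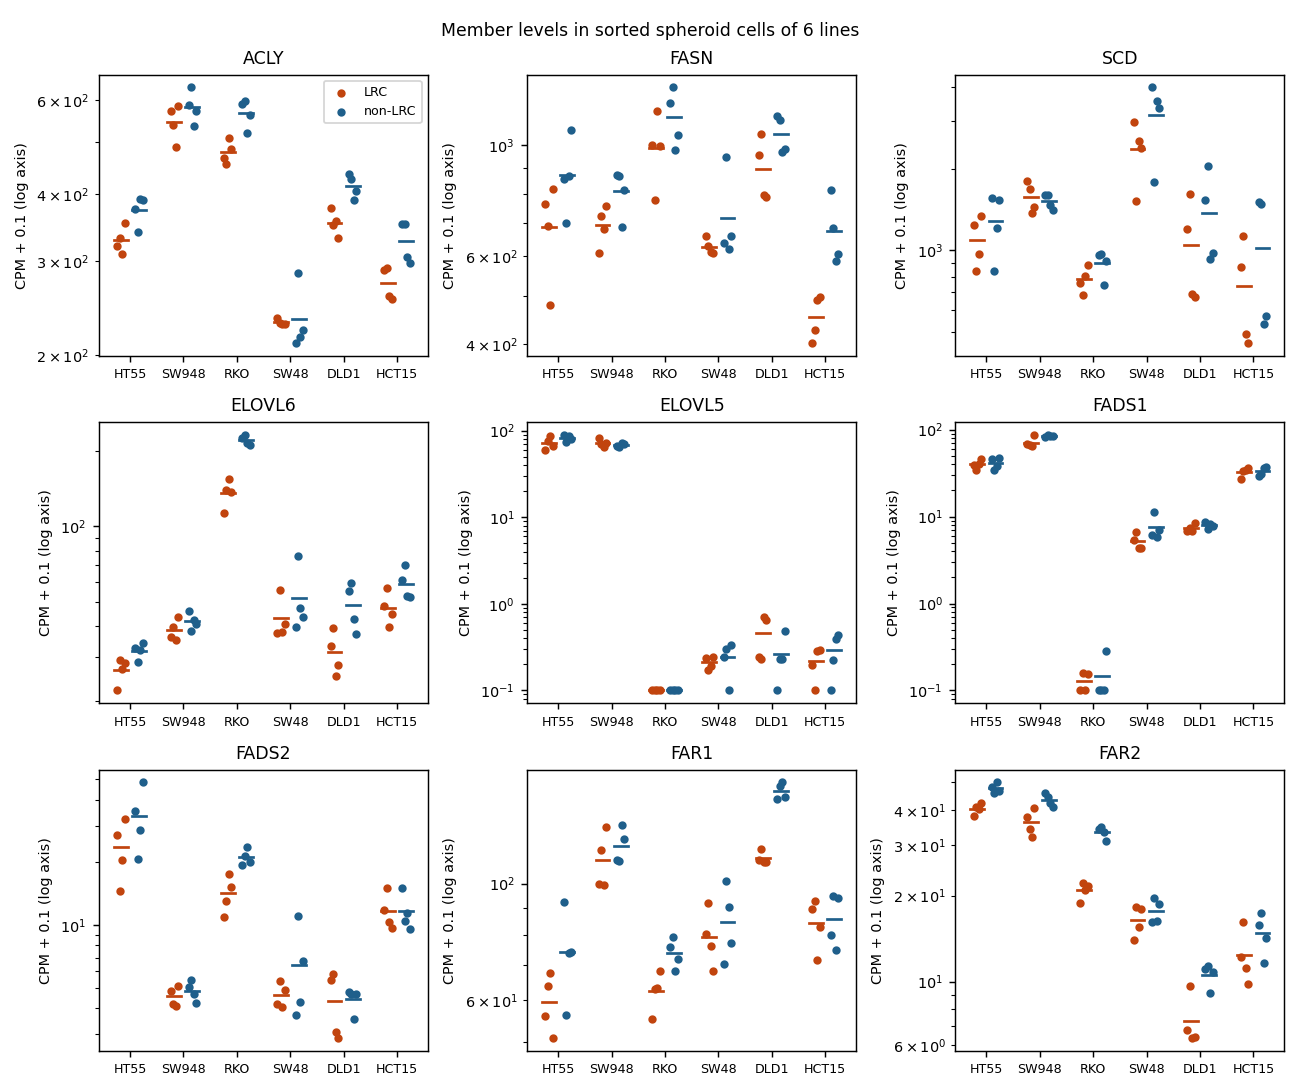
Levels of the 9 genes in sorted cells (y axis CPM + 0.1, log axis; x axis the 6 lines); points are libraries (4 per population), lines are means, orange LRCs and blue non-LRCs. ELOVL5 sits above 59 CPM in HT55 and SW948 and under 1 CPM elsewhere, and FADS1 is under 1 CPM in RKO.

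The next comparison asked how LRCs differed from non-LRCs. Across the 6 lines all 9 fitted log2 fold changes lay below 0 (median -0.28, against 0.01 over all genes). The fit called 6 of 9 lower, FASN, ACLY, ELOVL6, FADS2, FAR1 and FAR2, and 0 higher, where 22.9% of 16603 genes were called, 10.7% lower and 12.2% higher. Since this contrast helped to choose the genes, nothing is read from that count. With a block for same-numbered libraries of a line the count was 8 of 9, with SCD and FADS1 also called, where 25.5% of genes were called in either direction. In bulk RNA, fewer cells of a type and less RNA per cell cannot be told apart.

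FAR2 had the LRC library below its same-numbered non-LRC library in 24 of 24 pairs, the most of the 9 genes. In SW948 and RKO the numbers were not shown to pair the libraries. Counts of pairs, here and below, have no share over all genes beside them, and nothing is read from them. In RKO the LRC values were 18.7, 22.1, 20.8 and 21.5 CPM, and the non-LRC values were 34.3, 34.8, 33.4 and 30.9. In DLD1 they were 6.64, 9.51, 6.24 and 6.28 in LRCs and 10.9, 11.2, 9.02 and 10.7 in non-LRCs. The groups did not overlap in HT55, SW948 and RKO, where 1.49%, 2.16% and 17.7% of all genes had every LRC library below every non-LRC library, and in DLD1 only LRC replicate 2 reached into the non-LRC range. In SW48 and HCT15, where 3.44% and 5.2% of genes were separate, the FAR2 groups overlapped. In HT55 the LRC values were 37.9, 40.7, 40.01 and 42.1 CPM against 47.9, 45.7, 49.8 and 46.3, and in SW948 they were 37.7, 34.2, 32.1 and 40.6 against 45.7, 44.3, 42.1 and 40.8. The log2 fold change was -0.70 ± 0.08 (SE) in RKO, -0.53 ± 0.15 in DLD1, -0.24 ± 0.08 in HT55, -0.25 ± 0.08 in SW948, -0.25 ± 0.17 in HCT15 and -0.11 ± 0.12 in SW48.

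FAR1 was lower in 19 of 24 pairs. DLD1 LRCs had 111, 116, 109.8 and 109.7 CPM, all below the non-LRCs at 144, 153, 156 and 146. The DLD1 log2 fold change of FAR1 was -0.41 ± 0.05, that of RKO was -0.26 ± 0.08, and in HCT15 it was -0.02 ± 0.11. FAR1 groups were separate in DLD1, where 12.1% of genes were, and in RKO, where 17.7% were, and overlapped in the other lines.

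ELOVL6 was lower in 21 of 24 pairs. In RKO, where its level was highest, the LRC values were 113, 139.9, 154 and 137 CPM, and the non-LRC values were 225, 232, 215 and 211, with a log2 fold change of -0.72 ± 0.08. In DLD1, LRC values of 33.3, 39.2, 25.2 and 27.9 CPM met non-LRC values of 55.2, 59.2, 42.7 and 36.96, overlapping only where LRC replicate 2 passed non-LRC replicate 4, and the log2 fold change was -0.62 ± 0.16. ELOVL5, which passed the count filter only in HT55 and SW948, was lower in 4 of 8 pairs, with log2 fold changes of -0.18 ± 0.11 and 0.09 ± 0.08.

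FASN was lower in 22 of 24 pairs and ACLY in 20 of 24. HCT15 showed the widest FASN gap, with 403, 428, 491 and 496 CPM in LRCs and 815, 682, 588 and 608 in non-LRCs, and no overlap (5.2% of genes). The log2 fold change of FASN was -0.56 ± 0.12 in HCT15 and -0.20 ± 0.14 to -0.34 ± 0.17 in the other lines. ACLY groups were separate in RKO, DLD1 and HCT15, as were 17.7%, 12.1% and 5.2% of all genes in this direction. Its log2 fold changes there were -0.27 ± 0.07, -0.22 ± 0.06 and -0.25 ± 0.09.

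SCD was lower in 20 of 24 pairs, yet overlapped in every line. In HCT15 the LRC values were 867, 1128, 493 and 456 CPM and the non-LRC values 1502, 1484, 533 and 575, so replicates 1 and 2 lay above 3 and 4 in both populations. DLD1 had the same split, at 1195, 1615, 689 and 676 in LRCs and 1530.0, 2039.7, 925 and 973 in non-LRCs. FADS1 was lower in 14 of 20 pairs of the 5 lines where it could be tested, and FADS2 in 18 of 24, with a log2 fold change of -0.60 ± 0.13 in RKO and 0.01 ± 0.18 in HCT15.

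By line, the fits called 5 of 7 genes tested in RKO (ACLY, ELOVL6, FADS2, FAR1, FAR2; 41.5% of all genes called, 20.4% higher and 21% lower) and 4 of 8 in DLD1 (ACLY, ELOVL6, FAR1, FAR2; 14.6%, with 6.67% higher and 7.89% lower). None passed in SW48 (0 of 8; 0.796%, with 0.72% higher and 0.0758% lower) or HCT15 (0 of 8; 0.977%, with 0.728% higher and 0.25% lower), nor in HT55 and SW948 (0 of 9 each), where edgeR called 0.0% of 13391 and 0.0% of 13674 genes. At an unadjusted p under 0.05 there were 4 of these genes in HT55, 3 in SW948, 0 in SW48 and 3 in HCT15, and DESeq2 called 1 of them in HCT15 and 0 in each of the other 3 lines. Over all genes, HT55, SW948, SW48 and HCT15 had 7.51%, 17.2%, 13.1% and 17.2% below that unadjusted p, and DESeq2 called 37, 244, 361 and 531 genes. With the block for same-numbered libraries, FASN and SCD were also called in DLD1 (6 of 8; 33.8% of genes), SCD in SW48 (1 of 8; 9.69%) and FASN, ACLY, SCD and ELOVL6 in HCT15 (4 of 8; 21.3%), and all were lower in LRCs. Without the pair numbered 1 or that numbered 3, 1 call was left in DLD1, and 2 without pair 4. In RKO 3 were left without pair 2. Without pair 2, 1 gene was called in HT55 and 1 in SW48, and without pair 4, 2 were called in SW948. Shares over all genes are not given for these left-out fits, and nothing is read from their counts.

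Proliferation genes were lower in the LRCs of some lines. Of 10 such genes, 8 were called lower in RKO LRCs and 8 in DLD1 LRCs, where 21% and 7.89% of all genes were called lower. Their summed level was 987 ± 229.6 against 1495 ± 46.7 CPM in RKO and 1083 ± 184 against 1582 ± 77.0 in DLD1. In HT55, SW948, SW48 and HCT15 0 of the 10 were called, where at most 0.977% of all genes were called. Fitted values lay below 0 for 4 of 10 in HT55, 7 in SW948, 10 in SW48 and 0 in HCT15. The part of proliferation in the result was not tested.

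**Figure D2:**
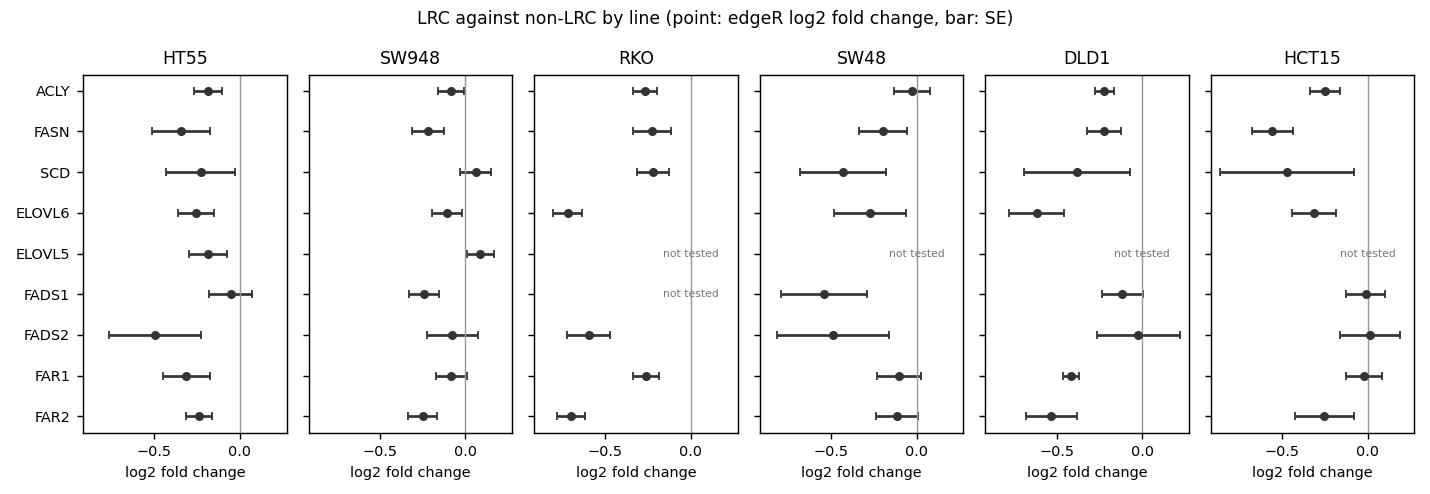
Log2 fold change of LRCs against non-LRCs (x axis) for each gene (y axis) in each line, from edgeR fits of 4 against 4 libraries; bars are SEs and "not tested" marks genes under the count filter. FAR2 lies left of 0 in all 6 lines, while SCD and ELOVL5 lie right of it in SW948.

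The unsorted DLD1 controls answer a different question, how levels differed with the dye and with time in culture without sorting. ELOVL5 was under the count filter there, with 5 to 17 reads per group of 4 libraries, which left 8 genes. On day 1, CFSE cells had lower levels than unlabeled cells for 5 of 8 genes (SCD, FASN, ACLY, ELOVL6 and FADS1) and higher for 0, where 21.8% of 14518 genes were called, 12% lower and 9.73% higher. Neither reductase nor FADS2 passed.

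SCD differed most. On day 1 the unlabeled libraries had 1723, 1757, 2187 and 1508 CPM, and the CFSE libraries had 255, 265, 813 and 764. Every CFSE library lay below every unlabeled one, as for 14% of all genes, and among the CFSE libraries replicates 1 and 2 were lowest. SCD fell by 1.76 ± 0.30 on the log2 scale (edgeR adjusted p = 0.0016), and by 1.85 ± 0.32 without unlabeled day 1 replicate 4 (adjusted p = 0.0026). Without CFSE day 1 replicates 1 and 2 it fell by 1.17 ± 0.16 (edgeR adjusted p = 0.0030).

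FASN values on day 1 were 1468, 1541, 1363 and 952 CPM unlabeled and 571, 617, 968 and 899 with CFSE. The only overlap was between unlabeled replicate 4 and CFSE replicate 3. FASN fell by 0.78 ± 0.19 (edgeR adjusted p = 0.0096). ACLY values were 553, 562, 620.0 and 445 CPM unlabeled and 269, 257, 396 and 378 with CFSE, with no overlap either (14% of genes), and ACLY fell by 0.72 ± 0.14 (edgeR adjusted p = 0.0038).

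ELOVL6 fell by 0.53 ± 0.15 and FADS1 by 0.51 ± 0.14, both at an edgeR adjusted p of 0.019. FADS1 had 43.6, 46.9, 42.7 and 41.3 CPM unlabeled against 22.1, 24.6, 38.02 and 35.9 with CFSE, also without overlap (14% of genes). ELOVL6 had 80.5 CPM in unlabeled replicate 4 and up to 88.1 with CFSE. Without unlabeled day 1 replicate 4 the 5 calls stood, where 18% of genes were called in either direction. Without CFSE day 1 replicates 1 and 2 only SCD was called (1 of 8, where 1.36% of genes were called). Leaving out all control libraries numbered 1 left 2 calls, and leaving out those numbered 2 left 1 (shares over all genes not given).

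The reductases gave other values. FAR1 on day 1 had 113, 106, 144 and 117 CPM unlabeled and 123, 114, 120.2 and 121 with CFSE, a log2 fold change of 0.02 ± 0.13 (edgeR adjusted p = 0.91). FAR2 had 20.6, 21.5, 25.7 and 17.3 CPM unlabeled and 12.1, 12.6, 21.5 and 23.97 with CFSE, a log2 fold change of -0.25 ± 0.19 (adjusted p = 0.36). FAR2 in CFSE cells was split between replicates 1 and 2 and replicates 3 and 4, as SCD was.

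**Figure D3:**
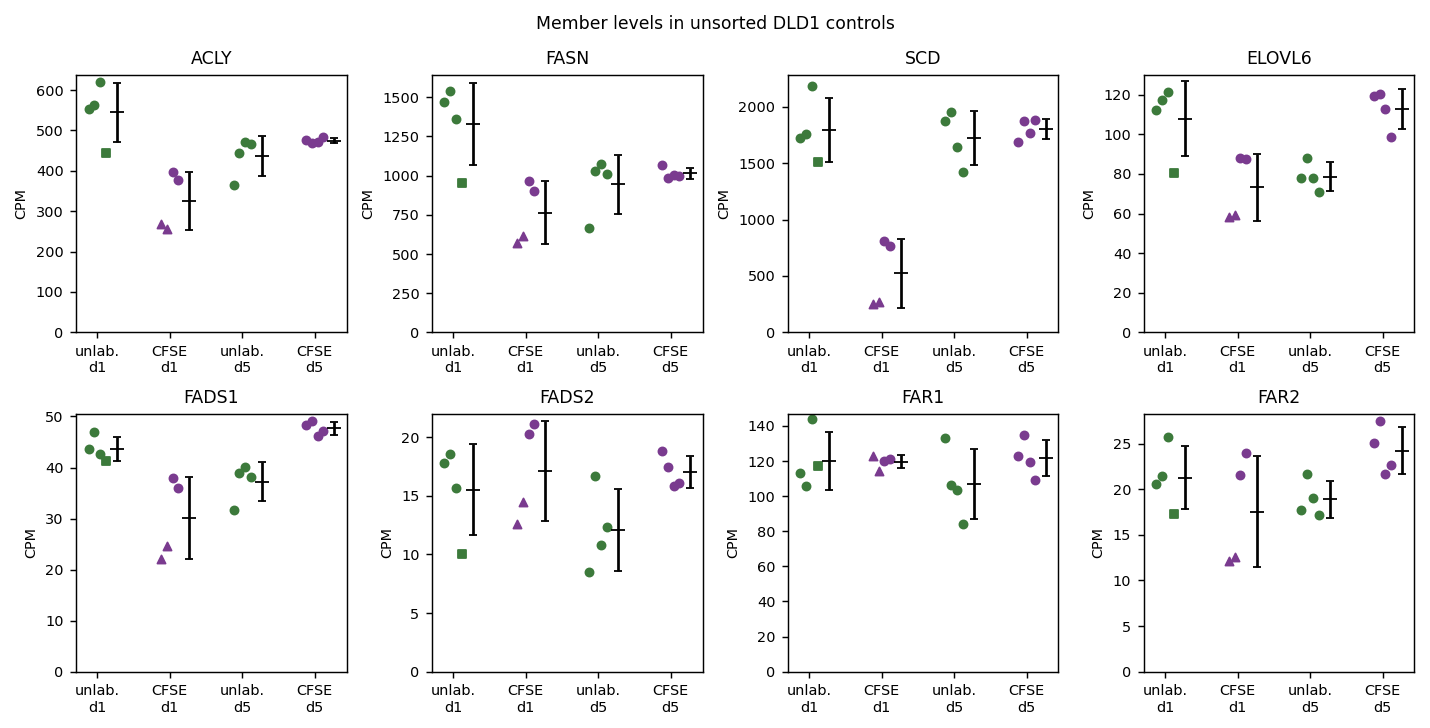
Levels of 8 genes in unsorted DLD1 controls (y axis CPM from 0; x axis dye and day); points are libraries, bars are mean ± SD (n = 4), the square is unlabeled day 1 replicate 4 and triangles are CFSE day 1 replicates 1 and 2. SCD is at or below 813 CPM in all 4 CFSE day 1 libraries and at or above 1424 CPM in the other 12.

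On day 5 all 8 fitted dye differences lay above 0 (median 0.26, against -0.03 over all genes). Of these genes 0 of 8 passed edgeR, where 5.13% of genes were called, 3.11% higher and 2.03% lower. At an unadjusted p under 0.05 there were 3, and DESeq2 called 1, where 24.4% of all genes were below that p and DESeq2 called 1521. SCD had 1869.5, 1955, 1641 and 1424 CPM unlabeled and 1691, 1871, 1767 and 1879.8 with CFSE, a log2 fold change of 0.06 ± 0.29. For FADS2 it was 0.49 ± 0.22 and for FAR2 0.35 ± 0.19, where day 1 had 0.17 ± 0.22 and -0.25 ± 0.19. ELOVL6 had 77.8, 88.3, 78.0 and 70.7 CPM unlabeled, all below 119, 120.4, 113 and 98.9 with CFSE (9.29% of genes were separate in this direction), with a log2 fold change of 0.51 ± 0.15 (edgeR adjusted p = 0.056). Without unlabeled day 1 replicate 4 the count was 1 of 8 (13.3% of genes called), and without CFSE day 1 replicates 1 and 2 it was 2, ELOVL6 and FADS1 (6.73%).

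The comparisons over time share these control libraries. In CFSE cells 4 of 8 genes rose from day 1 to day 5 (SCD, ACLY, ELOVL6 and FADS1), where 39.3% of genes were called, 20.2% higher and 19.1% lower. SCD rose 3.37-fold, a log2 fold change of 1.75 ± 0.30 (edgeR adjusted p = 0.00049), FADS1 by 0.63 ± 0.14 (adjusted p = 0.0032), ELOVL6 by 0.59 ± 0.15 (adjusted p = 0.0061) and ACLY by 0.51 ± 0.14 (adjusted p = 0.00997). FASN, at 0.37 ± 0.19, did not pass. Without CFSE day 1 replicates 1 and 2 the count was 1 of 8, SCD, at 1.10 ± 0.16 (edgeR adjusted p = 0.0019; 19.6% of genes called). Leaving out the control libraries numbered 1 left 2 calls, and those numbered 2 left 1 (shares over all genes not given).

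In unlabeled cells all 8 fitted values lay below 0 (median -0.28, against 0.04 over all genes) and 1 of 8 fell, where 13.1% of genes were called lower. That gene was ELOVL6, which fell by 0.46 ± 0.15 (edgeR adjusted p = 0.036). FASN had 1468, 1541, 1363 and 952 CPM on day 1 and 666, 1031, 1073 and 1013 on day 5, a log2 fold change of -0.49 ± 0.19 (edgeR adjusted p = 0.060). Its days overlapped through day 1 replicate 4 alone, where 6.21% of genes had every day 5 library below every day 1 library and 8.11% the reverse. Without unlabeled day 1 replicate 4 the count was 4 of 8 (42.1% of genes called in either direction): FASN fell by 0.70 ± 0.18, ELOVL6 by 0.65 ± 0.15, FADS2 by 0.60 ± 0.21 and ACLY by 0.48 ± 0.15. Without CFSE day 1 replicates 1 and 2, which enter this fit but not this contrast, the count was also 4 (ACLY, FASN, ELOVL6 and FADS1; 27.9%). Leaving out all libraries numbered 1, 2 or 3 left 0 calls in each case (shares over all genes not given).

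The difference between the time effects was tested itself. It was above 0 for all 8 genes (median 0.84, against -0.01 over all genes), and 2 of 8 passed, SCD at 1.81 ± 0.41 (edgeR adjusted p = 0.046) and ELOVL6 at 1.05 ± 0.21 (adjusted p = 0.031), where 0.999% of genes were called, 0.847% higher and 0.152% lower. Without unlabeled day 1 replicate 4, ACLY, FADS1 and FASN passed as well (5 of 8; 6.09% of genes called), and without CFSE day 1 replicates 1 and 2 only SCD did (1.20 ± 0.20, edgeR adjusted p = 0.047; 0.0905%). Leaving out all control libraries numbered 1, 2 or 3 left 0 calls, and leaving out those numbered 4 gave 5 (shares over all genes not given). Averaged over both dye states, SCD alone rose (0.84 ± 0.20, edgeR adjusted p = 0.0029; 49.5% of genes called, 26.4% higher). It was 0.75 ± 0.22 without unlabeled day 1 replicate 4 (edgeR adjusted p = 0.0090) and 0.50 ± 0.10 without CFSE day 1 replicates 1 and 2 (edgeR adjusted p = 0.0017), where 55.8% and 43.9% of genes were called.

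**Figure D4:**
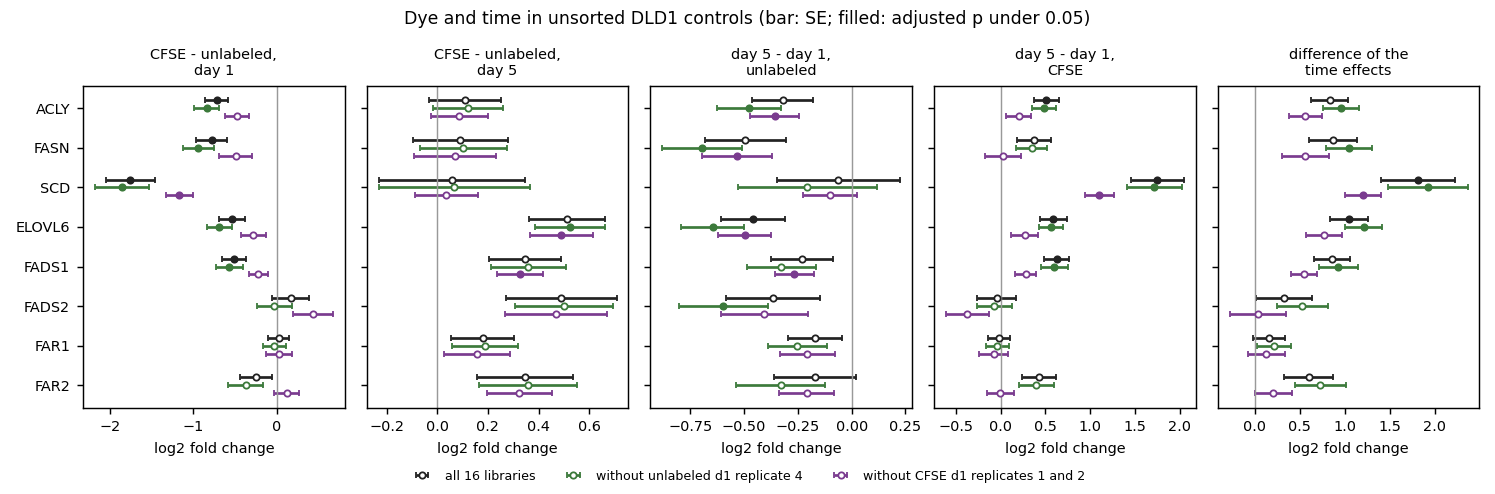
Log2 fold changes (x axis, a scale per panel) of 8 genes (y axis) for dye and time in unsorted DLD1 controls. Bars are SEs and filled points have an edgeR adjusted p under 0.05. Colours give the fit with all 16 libraries, that without unlabeled day 1 replicate 4 and that without CFSE day 1 replicates 1 and 2. SCD is filled under all 3 fits for the dye on day 1, for time in CFSE cells and for the difference of the time effects.

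Other values moved with the control groups. Proliferation genes were called higher with CFSE on day 5 (9 of 10, against 3.11% of all genes) and from day 1 to day 5 in CFSE cells (6 of 10, against 20.2%). They were called lower from day 1 to day 5 in unlabeled cells (3 of 10, against 13.1%), and 1 of 10 was lower with CFSE on day 1 (12% of genes). Without unlabeled day 1 replicate 4 the last 2 counts were 9 and 2. Without CFSE day 1 replicates 1 and 2 the rise in CFSE cells was called for 2 of 10, the dye on day 1 for 0 and the other counts were 7 and 3. Reads outside genes were 12.1% to 14.8% in CFSE day 1 libraries, 8.96% to 13.6% in unlabeled day 1 and 5.19% to 8.35% on day 5. Summed leukocyte markers were 17.9 to 34.4 CPM in CFSE day 1 libraries and 6.88 to 14.3 in unlabeled day 1. The part of these in the results was not tested.

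The same line was also at different levels in the sorted and the unsorted cells. FADS1 in DLD1 was 7.24 ± 0.824 CPM in LRCs and 7.89 ± 0.632 in non-LRCs, and its unsorted groups had means of 30.2 to 47.7. ELOVL6 was 31.4 ± 6.20 and 48.5 ± 10.4 when sorted and had means of 73.3 to 113 when not. FAR2 was 7.17 ± 1.57 and 10.5 ± 0.995 against means of 17.5 to 24.2. FADS2 was 4.22 ± 1.55 and 4.34 ± 0.582 against means of 12.1 to 17.1. FASN, SCD, ACLY and FAR1 did not show this order. Sorting and the time, place and form of culture cannot be told apart here, and no test was run.

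Genes around the pathway gave further context in the controls. Of 10 genes for supply of acetyl-CoA, malonyl-CoA and NADPH, 5 were called lower with CFSE on day 1 and 7 were called higher from day 1 to day 5 in CFSE cells, with median log2 fold changes of -0.60 and 0.73 (all genes -0.01 and 0.02, with 12% called lower and 20.2% called higher). These counts were 3 and 4 without CFSE day 1 replicates 1 and 2 (medians -0.34 and 0.40), where 1.36% and 19.6% of genes were called in either direction. ACO1, the cytosolic aconitase, rose from day 1 to day 5 over both dye states (0.89 ± 0.10, edgeR adjusted p = 2.4e-05), from 87.4 to 159 CPM. Of 13 regulators tested, 4 were lower with CFSE on day 1 and 0 higher (median -0.27), and over time 7 were higher and 1 lower (median 0.28). Without CFSE day 1 replicates 1 and 2 the dye on day 1 left 0 of the 13 called, and over time 5 were higher and 3 lower (7 and 2 without unlabeled day 1 replicate 4). MLXIPL, the sugar-responsive factor ChREBP, fell over time by 0.94 ± 0.28 (edgeR adjusted p = 0.010).

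Among 11 other elongases and desaturases tested, 8 were called higher over time and 1 lower (median 0.46). SCD5, the second stearoyl-CoA desaturase, rose from 34.7 to 72.4 CPM (1.06 ± 0.16, edgeR adjusted p = 9.4e-05), whereas FADS3 fell by 0.83 ± 0.16 (adjusted p = 0.00059). Of 12 acyl-CoA synthetase and storage genes, 6 were higher and 3 lower (median 0.32): DGAT2, the last enzyme of triglyceride synthesis, rose by 0.96 ± 0.16 and LPIN1, a phosphatidate phosphatase, fell by 0.78 ± 0.12. Of 12 fatty acid oxidation genes 8 were higher and 1 lower (median 0.39; 8 and 2 without unlabeled day 1 replicate 4), the 1 being CPT1B, the muscle form of the carnitine transferase, which fell by 2.10 ± 0.34 from a low level (2.99 to 0.695 CPM). Of 8 ether lipid and aldehyde genes 4 were higher and 1 lower (median 0.09), TMEM86B, a lysoplasmalogenase, by 1.13 ± 0.20. The ether lipid counts were 2 and 1 without unlabeled day 1 replicate 4 (median 0.06), and likewise without CFSE day 1 replicates 1 and 2. All 8 genes named here from these lists over time passed in the same direction in both of those fits. Of all genes, 26.4% were called higher and 23.1% lower in this comparison (median 0.04).

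The same lists were read in LRCs against non-LRCs across lines, again as a description. Of 6 mitochondrial fatty acid synthesis genes 4 were called lower (median -0.17), MECR, the reductase of that pathway, at -0.26 ± 0.05 among them, and of 12 other elongases and desaturases 2 were lower, with HACD1, a dehydratase of elongation, at -0.33 ± 0.07. Supply genes had 4 of 10 lower, ether lipid genes 3 of 8, regulators 1 of 14, oxidation 1 of 12 and storage 0 of 13, with 0 higher in any list. The proliferation list had 6 of 10 lower, with BIRC5 at -0.39 ± 0.13, MCM5 at -0.32 ± 0.08, TYMS at -0.30 ± 0.11 and MCM2 at -0.28 ± 0.07. These stand beside 10.7% of all genes called lower.

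The closest patterns were sought over the 16 group means of log2 CPM, each gene centred on its own mean, among 9713 genes. FASN lay nearest to G6PC3 (root mean square difference 0.22), PHTF1 (0.22) and NLN (0.25), where FASN itself varied by 0.37. FAR2 lay nearest to HNF4G (0.24) and CDK8 (0.33), where FAR2 itself varied by 0.75. Groups of a line share their cells, so the 16 means are not independent.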

How the data were processed

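RNA of 64 libraries was made with TruSeq kits and sequenced as single 50 base reads. The authors aligned reads to hg19, and the deposited values are raw HTSeq counts per Ensembl gene, 1 table per library. The submitters' processing notes name TopHat, HTSeq and DESeq without versions, and the strand setting is not given in the sources used here. Identifiers were paired with symbols for 72.5% of 54127 genes.

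Counts were scaled by TMM and tested with edgeR 4.0.16 (R 4.3.3, quasi-likelihood) after dropping genes that did not reach 10 counts in 4 or more libraries of a fit, adjusted by Benjamini-Hochberg over all genes tested, with a threshold of 0.05. LRC fits used 48 sorted libraries or the 8 of a line, and dye and time used the 16 controls. DESeq2 1.42.0, other scalings and filters, a replicate block and left-out libraries were alternatives. The edgeR fit was run on simulated data for LRCs across lines, LRCs in RKO, time in CFSE cells, the dye on day 1 and the difference of time effects. The test between lines, DESeq2 and the replicate block were not. CPM are counts per 1e6 of the TMM-scaled library size over the 64 libraries, and levels between genes are compared per kb of exon. Exon length is that of all exons of a gene joined, from a GENCODE annotation on GRCh37. It may differ from the annotation used in counting. The limit given for 0 reads covers counting error only.

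Same-numbered libraries of a line deviated together (every pair's correlation over 0.1) in HT55, SW48, DLD1 and HCT15, with lowest values of 0.141, 0.123, 0.151 and 0.232. They did not in SW948 and RKO (0.0122 and -0.0697), nor in the pairs of control groups, save CFSE day 1 with CFSE day 5 (lowest 0.12). Pairs of unlike number had means below 0 in HT55, SW48, DLD1, HCT15 and those controls. Yet they reached 0.439 in HCT15 and 0.2325 in those controls, above every same-numbered pair (at most 0.418 and 0.2324). The rule of 0.1 thus does not show pairing by number alone.

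The members and lists were chosen with earlier results of these data known. All analysed members are named. Other genes named are the up to 8 of the lists past the threshold with the largest fold change over time, the up to 6 with the largest across lines in LRCs, and for FASN and FAR2 the 3 genes of nearest pattern, of which 1 is not reported here.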

Additional observations from a re-analysis of the deposited data

Results flagged for a closer look

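In 8 of 142 groups of 4 libraries, 1 library lay far from the other 3, by Dixon's test, which chance gives in about 1 in 20 groups. FASN was 946 CPM in SW48 non-LRC replicate 2, the highest of a group that began at 620.4, and ACLY was 285 CPM in the same library. FASN was 666 CPM in unlabeled day 5 replicate 1, the lowest of its group. FADS2 was 3.46 CPM in DLD1 non-LRC replicate 3. In DLD1 LRC replicate 2, FAR1 was 116 CPM and FAR2 was 9.51 CPM, the highest of their groups. In the low range, ELOVL5 was 0 CPM in CFSE day 1 replicate 2 and FADS1 was 0.187 CPM in RKO non-LRC replicate 4.

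The effect of time differed between CFSE and unlabeled controls for SCD by 1.81 on the log2 scale and for ELOVL6 by 1.05, each by the test of that difference. SCD rose with CFSE and had a log2 fold change of -0.06 ± 0.29 without it.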

How the results depend on the processing

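Counts of the genes called are given here with the count of the report first. Of 1185 alternative values of single genes, 1036 kept their direction and their side of the threshold, 59 passed it anew, 50 no longer passed, and 40 changed sign, each from one value that did not pass to another. The count for HCT15 was 0 and became 1 with DESeq2, 1 without TMM, 1 without the filter, 4 with the replicate block and 2 with all 48 libraries in 1 fit. For SW48 it was 0 and became 1 with the replicate block. For time in both dye states it was 1, and 2 without TMM. For time in unlabeled cells it was 1, and 2 with each of DESeq2, no TMM, no filter and 10 counts in every library, 0 with a log2 fold change of at least 0.5, 4 without unlabeled day 1 replicate 4 and 4 without CFSE day 1 replicates 1 and 2. Without those 2 libraries, time in CFSE cells went from 4 to 1 and the dye on day 1 from 5 to 1. For the dye on day 5 it was 0, then 1 with DESeq2, 1 without the filter, 1 with the replicate block, 1 without unlabeled day 1 replicate 4 and 2 without CFSE day 1 replicates 1 and 2. For the difference of time effects it was 2, then 5 with DESeq2, 1 without TMM, 5 without the filter, 1 with 10 counts in every library, 4 with the replicate block, 5 without unlabeled day 1 replicate 4 and 1 without CFSE day 1 replicates 1 and 2. Over all genes DESeq2 called 531 in HCT15, 4265 for time in unlabeled cells, 1521 for the dye on day 5 and 623 for the difference of time effects. There edgeR called 137, 3695, 745 and 145. For fits whose share over all genes is not given in the report, a change in these genes cannot be told from one over all genes. The causes were not tested. Among the controls the numbers paired the libraries of CFSE day 1 with CFSE day 5 only, where the block left 4 calls. In the other control groups, RKO and SW948 they were not shown to pair them, and the block changed no other count there by over 1.5 times.

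Leaving out each replicate number in turn gave 5 to 6 calls across lines, 0 to 1 in HT55, 0 to 2 in SW948, 3 to 7 in RKO, 0 to 1 in SW48, 1 to 3 in DLD1, 0 to 0 in HCT15, 1 to 1 for time in both dye states, 0 to 3 for time in unlabeled cells, 1 to 5 for time in CFSE cells, 1 to 5 for the dye on day 1, 0 to 1 for the dye on day 5, 0 to 5 for the difference of time effects and 9 to 9 between lines. Shares of all genes called are not given for these left-out fits. A change in these genes thus cannot be told from one over all genes. ELOVL5 outside HT55 and SW948, and FADS1 in RKO, had too few reads to be tested.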
